A study of Mus musculus with 16 samples.

Results

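Polyamine and creatine metabolism is represented here by 10 genes, which were taken by symbol from the deposited table of 21923 genes. They comprise 4 enzymes of polyamine synthesis (Odc1, Amd1, Srm, and Sms), 2 of polyamine breakdown (Smox and Sat1), and 4 genes of creatine synthesis, uptake, and use (Gatm, Slc6a8, Ckm, and Ckmt2). All 10 were found, all had counts in each of the 16 libraries, and all 10 passed the filter on low counts. RNA-seq was run on gastrocnemius, a calf muscle, taken on day 30 from 4 groups of 4 mice. NOR mice carried no tumor and were given PBS on day 0 in place of tumor cells, and CAC mice carried subcutaneous tumors. NOR, CAC, and KD mice received daily intraperitoneal PBS from day 9, by the labels or the study's methods. AM mice carried the same tumors as CAC mice and received amiloride in PBS, a potassium-sparing diuretic, at 2 mg/kg daily from day 9. KD mice were inoculated with Rab27 knock-down tumor cells, in which the targeted genes, regulators of exosome secretion, were lowered in the tumor and not in the muscle sequenced here. Each group held 2 mice labelled C57BL/6, whose tumors were LLC lung carcinoma, and 2 labelled BABL/c, whose tumors were CT26 colon carcinoma, so that strain and tumor line cannot be told apart. All were adults. The labels' protocol gives male C57BL/6 mice and both sexes for the CT26 model, while the study's methods give males of both strains, and no sex is given for a single mouse. Each library is labelled as a separate sample, and nothing more says that it came from 1 mouse, so p-values measure the spread between these samples.

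Polyamines are small positively charged molecules that bind nucleic acids. Ornithine decarboxylase (Odc1) makes putrescine, S-adenosylmethionine decarboxylase (Amd1) supplies the aminopropyl groups, and spermidine and spermine synthases (Srm and Sms) attach them. Spermine oxidase (Smox) converts spermine back to spermidine, and spermidine/spermine N1-acetyltransferase (Sat1) acetylates both for breakdown and export. In fast muscle, creatine made with Gatm and Gamt in other organs is taken up through Slc6a8. Mitochondrial creatine kinase (Ckmt2) loads phosphate onto it, and the cytosolic muscle enzyme (Ckm) returns that phosphate to ADP during contraction.

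Libraries held 35913190 to 61032708 counts. The summed CPM (counts scaled to a common library size) of 6 skeletal muscle markers were 22729.5 to 75595.5, the lowest in CAC 3, and none of the markers was at 0 in any library, which goes with the tissue label. Summed lymphocyte markers were 0.428 to 2.93 CPM in NOR 1, CAC 1, CAC 4, KD 2, and KD 3, and 29.0 to 354 CPM in the other libraries. Liver markers summed to 1643 CPM in AM 1 and to at most 20.2 CPM elsewhere. Macrophage markers of KD 2 and KD 3 summed to 75.4 and 44.8 CPM, against 353 and 356 CPM in KD 1 and KD 4. These libraries are given with and without where a result rests on them. Gene positions below are those of GENCODE M21 on GRCm38, matched by identifier. In whole muscle, fewer cells of a type and less RNA per cell cannot be told apart.

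The region before the transcription start is shown for the 3 members called in CAC vs. NOR, all of which fell in that comparison. Each line gives the 250 bases upstream of the RefSeq start in GRCm38.p6, 5′ to 3′ on the gene's strand, with capitals for letters that match one of 5 searched motifs. Amd1 lies on the minus strand, at chr10:40302189-40302438, Smox on the plus strand at chr2:131491612-131491861, and Ckmt2 on the minus strand at chr13:91876886-91877135. The Smox window lies inside the GENCODE M21 span of the gene (chr2:131491496-131525922), so the region before that gene start was not searched.
Amd1: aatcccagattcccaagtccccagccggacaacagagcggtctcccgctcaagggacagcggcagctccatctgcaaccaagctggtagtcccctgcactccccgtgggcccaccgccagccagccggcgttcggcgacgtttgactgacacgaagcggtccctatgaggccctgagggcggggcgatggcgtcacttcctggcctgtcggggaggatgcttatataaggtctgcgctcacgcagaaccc
Smox: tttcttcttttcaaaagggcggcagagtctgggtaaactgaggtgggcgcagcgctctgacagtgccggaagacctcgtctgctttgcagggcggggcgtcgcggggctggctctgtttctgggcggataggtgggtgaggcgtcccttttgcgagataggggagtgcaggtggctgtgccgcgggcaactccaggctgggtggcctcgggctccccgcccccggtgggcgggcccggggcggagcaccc
Ckmt2: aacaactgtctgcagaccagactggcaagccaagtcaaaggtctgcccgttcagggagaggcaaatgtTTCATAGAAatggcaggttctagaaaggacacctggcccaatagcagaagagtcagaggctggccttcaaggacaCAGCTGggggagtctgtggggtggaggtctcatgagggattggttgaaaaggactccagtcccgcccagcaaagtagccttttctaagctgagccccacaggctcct

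The motifs were CACGTG (the MYC type of E-box), CAGCTG (the MyoD type of E-box), GTAAACA (FoxO), TTCNNNGAA (STAT), and TTGCNNAA (C/EBP), each read on both strands. None of them is in the Amd1 or the Smox window. The Ckmt2 window holds CAGCTG, 107 bases before the start, and a STAT match, 182 bases before it. CAGCTG is also in the Ckm window, 249 bases before the RefSeq start, a window that also lies inside its gene's GENCODE M21 span. CAGCTG is in 13.0% of 32841 promoter windows of this length. A STAT match is in 7.02% of them. CACGTG is in the Sms window among the members and in 6.02% of all windows, while GTAAACA (3.17% of windows) and TTGCNNAA (9.57%) are in no member's window. No matches overlap in these windows, and 8 of the 10 members had a RefSeq promoter entry. The remaining members are Srm and Slc6a8. GC content was 64.4% for Amd1, 68.0% for Smox, and 54.0% for Ckmt2.

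Amd1 has a near copy, Amd2, a single-exon gene on the same chromosome, and this bears on how its reads can be assigned. Over the coding sequence of 1002 bases, Amd1 and Amd2 in GENCODE M21 differ at 1 base (G796C, Amd1 first, counted from the A of the start codon). The 60 coding bases from 766 to 825 are shown with that base in capitals.
Amd1: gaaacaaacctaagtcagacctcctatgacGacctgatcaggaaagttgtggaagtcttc
Amd2: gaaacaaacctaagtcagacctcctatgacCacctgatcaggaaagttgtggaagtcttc

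Of the 31-base words in Amd1 transcripts, 81.9% are also in Amd2. Of those in Amd2, 90.9% are also in Amd1, so the split of counts between Amd1 and Amd2 is uncertain. Of Odc1 words 31.3% recur in other genes, of Sms words 18.8%, and of Ckm words 13.6%, of which most lie in an antisense transcript of the Ckm locus. No word of Smox or Gatm recurs in another gene. The strandedness of the counting is not given in the sources used here.

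The first comparison asked how muscle of tumor-bearing mice differed from that of normal mice. In CAC vs. NOR, Amd1, Smox, and Ckmt2 fell, and none of the 10 members rose. A gene was called at a Benjamini-Hochberg FDR of at most 0.05 in edgeR's quasi-likelihood test with a fold change of at least 1.5 in either direction, and 9.45% of 14666 genes tested were called in either direction and 5.13% of the 14666 were called lower. Calls of members numbered 4 in DESeq2 (13.2% of genes), 3 in limma-voom (9.91%), 4 with labelled strain as a covariate (10.2%), and 4 in the fit of all 16 libraries (7.91%), the addition being Srm where there were 4. They numbered 2 with the replicate block (7.77% of genes) and in C57BL/6 mice alone (1.69%), where Ckmt2 was not called (edgeR FDR 0.0518 and 0.0643), and 0 in BABL/c mice alone, where 0% of 15059 genes were called. At an unadjusted p under 0.05 there were 5 members (29.1% of genes tested). Over the 10 members the median log2 fold change was -0.26, against 0.01 over all genes tested. CAC and NOR mice did not overlap for 4 members, 1 above and 3 below, against 23.3% of all genes tested.

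**Figure D1:**
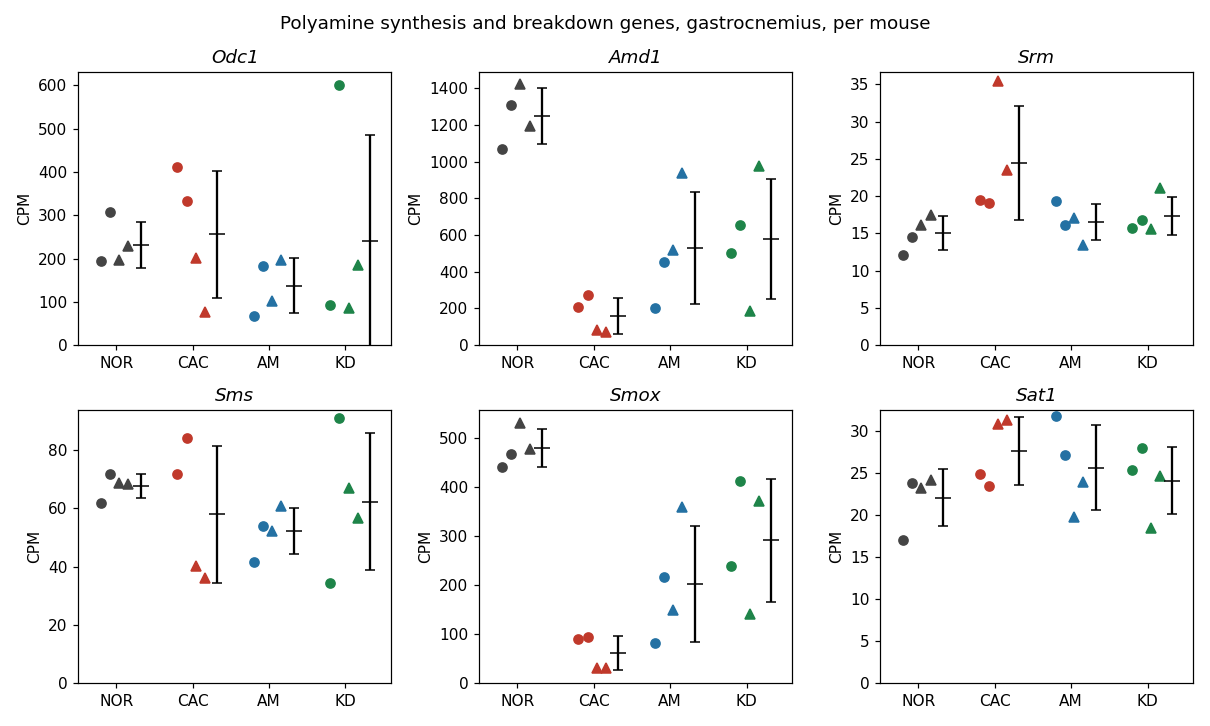
CPM of the 6 polyamine genes (y axes, each from 0) in NOR, CAC, AM, and KD mice (x axis), with 1 point a mouse, circles for C57BL/6 and triangles for BABL/c, and bars for mean ± SD (n = 4; the lower bar of Odc1 in KD is cut at 0). Amd1 and Smox lie at 1071 CPM or more and 440 CPM or more in NOR mice and at 272 CPM or less and 95.1 CPM or less in CAC mice, while Srm is the only one of the 6 whose CAC mice all lie above the NOR mice.

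Among the synthesis enzymes, Odc1, the rate-limiting first step (chr12:17544794-17551505, plus strand), had 194, 308, 198, and 228 CPM in NOR mice 1 to 4 and 412, 333, 201, and 77.7 CPM in CAC mice. Both C57BL/6 CAC mice stood above all NOR mice, and CAC 4 stood below all of them. The log2 fold change was 0.14 (SE 0.43, 95% interval -0.85 to 1.13, edgeR FDR 0.879).

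Amd1 (ENSMUSG00000075232, chr10:40287458-40302186, minus strand), whose product is the second regulated step of the pathway, had 1071, 1310, 1422, and 1194 CPM in NOR mice. In CAC mice it had 208 and 272 CPM (C57BL/6) and 82.2 and 69.7 CPM (BABL/c). The groups were far apart, and the CAC mean of 158 ± 98.4 CPM (SD, n = 4) was 12.6% of the NOR mean of 1249 ± 151 CPM. Amd1 was 7.95-fold lower in CAC mice (log2 fold change -2.99, SE 0.44, 95% interval -4.0 to -1.98, edgeR FDR 0.00590). With Amd1 and Amd2 counts summed into 1 gene, a setting chosen after seeing the data, the change was -2.97 (edgeR FDR 0.00520).

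Srm, which joins an aminopropyl group to putrescine (chr4:148591503-148594993, plus strand), had 12.1, 14.5, 16.2, and 17.5 CPM in NOR mice and 19.4, 19.1, 35.5, and 23.5 CPM in CAC mice. Every CAC mouse lay above every NOR mouse, and the 12.5% of genes tested that behaved so are its background. The log2 fold change of 0.70 (SE 0.22) did not pass the threshold (edgeR FDR 0.0703), and it passed in DESeq2 (adjusted p = 0.0234), with labelled strain as a covariate (edgeR FDR 0.0306), and in the fit of all 16 libraries (edgeR FDR 0.0363). Sms, the next synthase (chrX:157443855-157492287, minus strand), had 61.9 to 71.8 CPM in NOR mice. In CAC mice it had 71.7 and 84.0 CPM (C57BL/6) and 40.3 and 36.1 CPM (BABL/c), on either side of the NOR range except for CAC 1 within it, so that the log2 fold change of -0.23 (edgeR FDR 0.616) averages unlike mice.

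Of the breakdown enzymes, Smox (ENSMUSG00000027333, chr2:131491496-131525922, plus strand) had 440, 466, 531, and 478 CPM in NOR mice. In CAC mice it had 89.7 and 95.1 CPM (C57BL/6) and 31.8 and 31.4 CPM (BABL/c). As with Amd1 the groups did not overlap and the BABL/c mice were lowest, and the CAC mean was 13.0% of the NOR mean. Smox was 7.77-fold lower (log2 fold change -2.96, SE 0.40, 95% interval -3.87 to -2.05, edgeR FDR 0.00435). Sat1, the other breakdown enzyme (chrX:155213132-155216449, minus strand), had 17.0 to 24.2 CPM in NOR mice and 23.5 to 31.2 CPM in CAC mice, overlapping ranges, with a log2 fold change of 0.33 (SE 0.14, edgeR FDR 0.175).

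Amd1 and Smox kept their calls with each mouse left out in turn, with log2 fold changes of -3.38 to -2.74 for Amd1 and -3.23 to -2.73 for Smox. In C57BL/6 mice alone, 2 against 2, the changes were -2.31 for Amd1 (edgeR FDR 0.0352) and -2.29 for Smox (edgeR FDR 0.0194). In BABL/c mice alone they were larger, -4.07 and -3.97, and did not pass the threshold (edgeR FDR 0.0854 and 0.0668), which no gene passed there. The difference between the labelled strains was tested as an interaction: it was -1.63 for Smox (SE 0.17, edgeR FDR 0.18), -1.72 for Amd1 (SE 0.30, edgeR FDR 0.481), and -0.99 for Sms (SE 0.18, edgeR FDR 0.523), and 0 of 14666 genes passed an FDR of 0.05. At an unadjusted p these 3 members had 6.1e-05, 0.000934, and 0.00145 in edgeR.

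**Figure D2:**
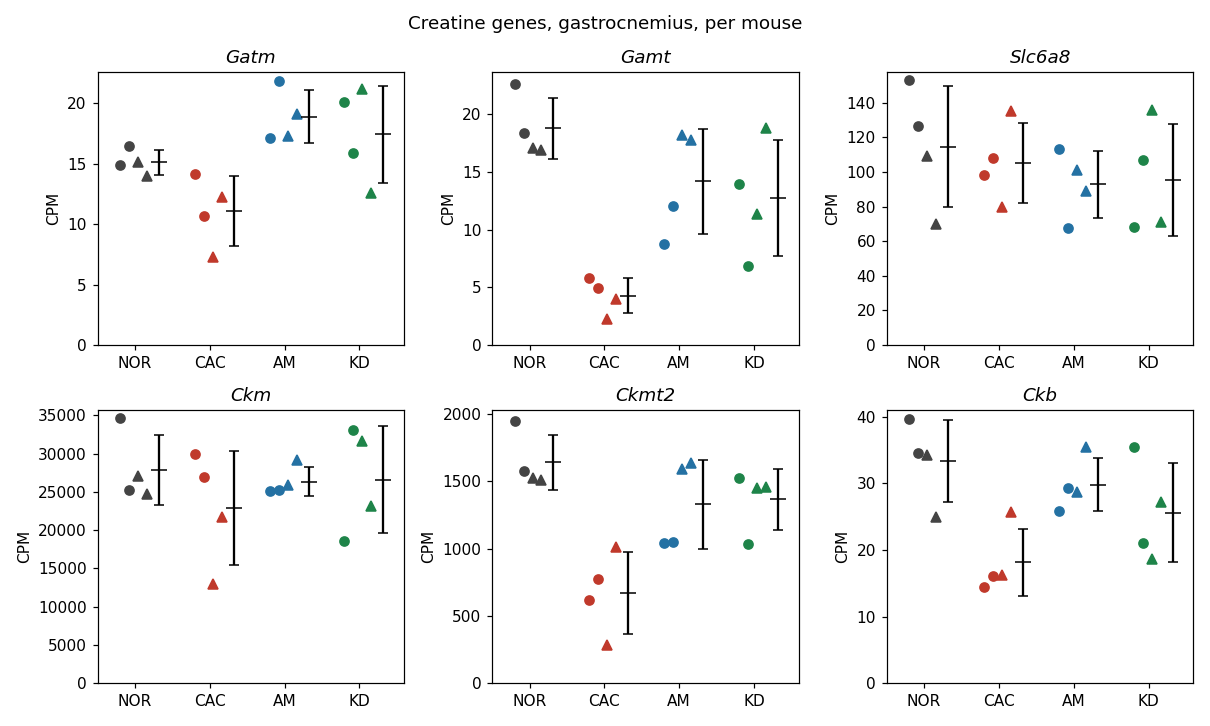
CPM of creatine genes (y axes, each from 0), including the non-members Gamt and Ckb, in NOR, CAC, AM, and KD mice (x axis), with 1 point a mouse, circles for C57BL/6 and triangles for BABL/c, and bars for mean ± SD (n = 4). Ckmt2 lies at 1512 to 1947 CPM in NOR mice and at 283 to 1012 CPM in CAC mice, and Gamt at 16.9 to 22.6 CPM and 2.29 to 5.80 CPM, whereas the groups overlap for Ckm and Slc6a8.

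Of the creatine genes, Gatm, which makes the creatine precursor guanidinoacetate (chr2:122594467-122611303, minus strand), was low in this muscle, with 14.0 to 16.4 CPM in NOR mice and 14.1, 10.7, 7.29, and 12.2 CPM in CAC mice. All CAC mice but CAC 1 lay below the NOR range, and the log2 fold change was -0.45 (SE 0.18, edgeR FDR 0.142). Slc6a8, the creatine transporter (chrX:73673150-73682502, plus strand), had 69.9 to 153 CPM in NOR mice and 79.5 to 135 CPM in CAC mice, within the NOR range. Its log2 fold change of -0.14 had a 95% interval of -0.71 to 0.44 (edgeR FDR 0.782).

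Ckm, the cytosolic muscle creatine kinase (chr7:19404776-19422841, plus strand), took 1.60% to 3.05% of the counts of each library. It had 34588, 25275, 27049.9, and 24702 CPM in NOR mice and 29970.4, 26903, 12956, and 21773 CPM in CAC mice. The groups overlapped, with CAC 3 lowest, and the log2 fold change of -0.30 (95% interval -0.98 to 0.38) did not pass (edgeR FDR 0.566). Ckmt2, the mitochondrial form in muscle (ENSMUSG00000021622, chr13:91853387-91876885, minus strand), had 1947, 1581, 1527, and 1512 CPM in NOR mice and 619, 779, 283, and 1012 CPM in CAC mice. The groups did not overlap, and the CAC mean was 41.0% of the NOR mean. Ckmt2 was 2.46-fold lower (log2 fold change -1.30, SE 0.34, 95% interval -2.07 to -0.53, edgeR FDR 0.0382). This call was lost without any of NOR 1 to 4, CAC 1, or CAC 2 (edgeR FDR 0.0643 to 0.0940). Over all 8 fits with a mouse left out the change was -1.56 to -1.03.

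Per length, in deposited FPKM, which the authors normalized to gene length and library size, the level of Ckm was highest of the 10 members in every group, with a mean of 13517 ± 1269 FPKM (SD, n = 4) in NOR mice. Next came Ckmt2 with 1066 ± 65.9, Amd1 with 621 ± 102, Smox with 303 ± 36.5, and Odc1 with 103 ± 27.9 FPKM, of which no neighbours overlapped in NOR mice. Slc6a8 (45.9 ± 12.1 FPKM) and Sms (32.6 ± 3.88 FPKM) followed and overlapped each other. Sat1 (20.9 ± 4.30), Srm (11 ± 2.19), and Gatm (6.14 ± 0.621 FPKM) were the lowest levels and did not overlap. In CAC mice the order changed: Odc1 (119 ± 60.6 FPKM) stood above Amd1 (81.9 ± 45.7 FPKM) and Smox (41.0 ± 20.2 FPKM) by mean. Slc6a8 (46.0 ± 9.37 FPKM) also stood above Smox by mean. The mice of Odc1, Amd1, and Smox overlapped in each pair, as did those of Slc6a8 and Smox.

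Ratios within a library do not depend on library scaling, and 4 ratios of FPKM were compared in 3 comparisons with a two-sided exact permutation test, which can give no p below 0.0286 for 4 against 4. Per 100 FPKM of Ckm, Ckmt2 had 7.53, 8.37, 7.55, and 8.19 in NOR mice and 2.76, 3.87, 2.92, and 6.22 in CAC mice. Every CAC mouse was below every NOR mouse, so that Ckmt2 was lowered relative to Ckm by 1.08 on the log2 scale (exact p = 0.0286, adjusted over 12 tests 0.0857). Per 100 FPKM of Odc1, Smox had 327, 217, 386, and 300.5 in NOR mice and 31.3, 41.1, 22.8, and 58.0 in CAC mice, again without overlap (log2 difference -3.06, exact p = 0.0286, adjusted 0.0857). No ratio passed 0.05 after adjustment, and Ckb to Ckm and Sat1 to Odc1 overlapped in each comparison.

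Marker lists of other cell types moved in the same comparison. All 5 neutrophil markers were called higher in CAC vs. NOR, with sums of 5.93 to 24.4 CPM in NOR and 94.4 to 226 CPM in CAC mice. Of 4 erythroid markers 3 were called higher (sums of 644 to 891 CPM in NOR and 2464 to 5689.5 CPM in CAC mice). Of 5 fibroblast markers 3 were called lower (2895 to 3833 CPM in NOR and 853 to 1387 CPM in CAC mice). Of the 6 skeletal muscle markers 1 was called higher and 1 lower, with a median log2 fold change of -0.68. Their sums did not overlap, at 51511.5 to 75595.5 CPM in NOR and 22729.5 to 47588.8 CPM in CAC mice. Of 8 fast and 8 slow fibre markers 0 were called. The part of these lists in the members' changes was not tested. With the lymphocyte score as a covariate, a setting chosen after seeing the data, Amd1, Smox, and Ckmt2 were called and Srm and Gatm as well (edgeR FDR 0.0271 and 0.0366), against 11.2% of all genes tested.

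**Figure D3:**
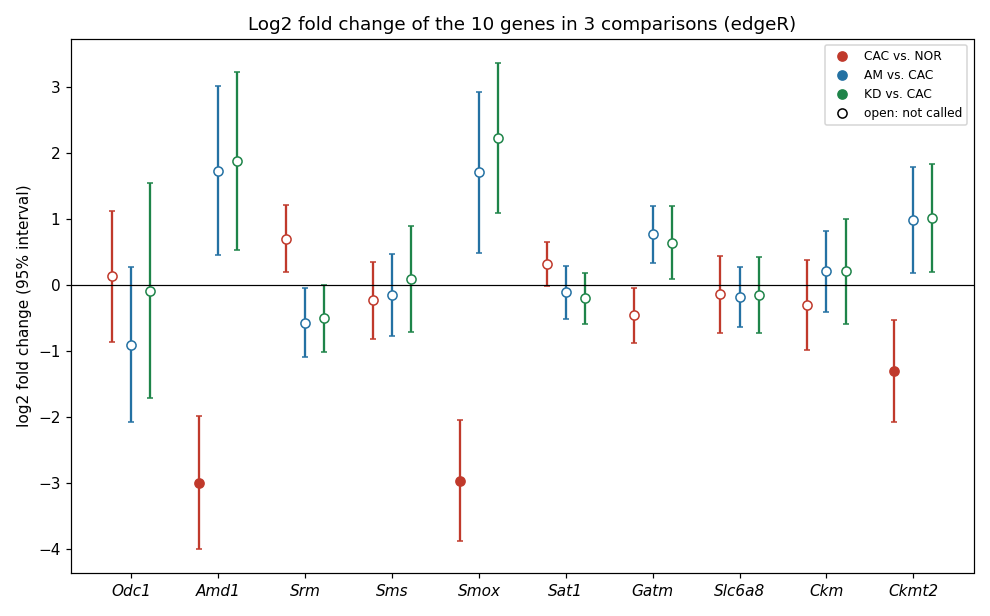
Log2 fold changes with 95% intervals (y axis) of the 10 genes (x axis) in the comparisons of CAC with NOR, AM with CAC, and KD with CAC from edgeR, with filled points where the gene was called. Amd1, Smox, and Ckmt2 are filled in CAC vs. NOR at -2.99, -2.96, and -1.30, and their open points in the other comparisons, which share the CAC mice, lie above 0.

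The second comparison asked what amiloride changed in tumor-bearing mice. In AM vs. CAC, 0 of the 10 members were called by edgeR, against 3.66% of 14674 genes tested. At an unadjusted p under 0.05 there were 5 members (21.7% of genes tested), DESeq2 called 4 (Amd1, Smox, Gatm, and Ckmt2, against 7.67% of the genes it tested), and limma-voom called 1 (Gatm, against 3.77%). This comparison shares its CAC mice with CAC vs. NOR, so that a low CAC value enters both.

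Amd1 had 201, 454, 516, and 937 CPM in AM mice, of which AM 1 lay within the CAC range of 69.7 to 272 CPM and the others above it. The log2 fold change was 1.74 (SE 0.56, 95% interval 0.46 to 3.02, edgeR FDR 0.115; DESeq2 adjusted p = 0.00701). Smox had 82.2, 217, 150, and 360 CPM, again with only AM 1 inside the CAC range, and a log2 fold change of 1.71 (SE 0.53, 95% interval 0.49 to 2.93, edgeR FDR 0.105; DESeq2 adjusted p = 0.00580). AM 1 is also the library with liver markers, and without it the changes were 2.01 for Amd1 (edgeR FDR 0.0913) and 1.97 for Smox (edgeR FDR 0.0854).

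The labelled strains gave unlike values for these genes. In C57BL/6 mice alone the log2 fold changes of AM vs. CAC were 0.46 for Amd1 and 0.70 for Smox, and in BABL/c mice alone 3.23 and 2.99, none of them past the threshold, as was no other gene tested in either strain alone. The interaction was 2.78 for Amd1 (SE 0.63, edgeR FDR 0.278) and 2.30 for Smox (SE 0.75, edgeR FDR 0.349), and neither passed the threshold.

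Gatm and Ckmt2 were the members whose AM mice all lay above the CAC mice, as did 6.05% of genes tested (15.3% did not overlap in either direction). Gatm had 17.1, 21.8, 17.3, and 19.1 CPM in AM mice against at most 14.1 CPM in CAC mice (log2 fold change 0.77, SE 0.19, edgeR FDR 0.0552). It was called under upper-quartile and total-count scaling, with a 1 CPM filter, in DESeq2, in limma-voom, and with the lymphocyte covariate. Ckmt2 had 1041, 1051, 1593, and 1641 CPM in AM mice, the lowest 2 being C57BL/6, and all above the highest CAC mouse at 1012 CPM (log2 fold change 0.99, SE 0.35, edgeR FDR 0.147). With total counts as the only scaling, 1 member (Gatm) did not overlap instead of 2, against 15.4% of genes tested (5.02% of genes tested lay higher in AM mice). In the same comparison 3 of 5 fibroblast markers were called higher, with sums of 2128 to 3198 CPM in AM and 853 to 1387 CPM in CAC mice and a median log2 fold change of 2.52. Of 6 skeletal muscle markers 1 was called higher and 1 lower, with a median log2 fold change of 0.54. Their sums overlapped, at 46343.8 to 61127.5 CPM in AM and 22729.5 to 47588.8 CPM in CAC mice. No marker of the other lists was called. The part of these markers in the members' changes was not tested.

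The other members of AM vs. CAC overlapped. Odc1 had 66.4, 183, 102, and 198 CPM in AM mice (log2 fold change -0.90, 95% interval -2.08 to 0.28, edgeR FDR 0.365). Srm had 13.5 to 19.3 CPM in AM mice, of which AM 1 alone exceeded the lowest CAC mouse (log2 fold change -0.57, edgeR FDR 0.192). The changes of Sms (-0.15), Sat1 (-0.10), Slc6a8 (-0.17), and Ckm (0.21) were all smaller in size, with an edgeR FDR of 0.672 to 0.806. Smox per 100 FPKM of Odc1 was 178, 170.4, 212, and 261 in AM mice, all above the CAC mice (log2 difference 2.49, exact p = 0.0286, adjusted 0.0857). Ckmt2 per 100 FPKM of Ckm was 5.55, 5.57, 8.22, and 7.54, overlapping CAC 4 (exact p = 0.0857, adjusted 0.171).

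The third comparison asked how muscle differed when the tumor cells had less Rab27. In KD vs. CAC, 0 members were called by edgeR, against 0.00685% (1 gene) of 14593 tested. At an unadjusted p under 0.05 there were 4 members (11.1% of genes tested), DESeq2 called 2 (Amd1 and Smox, against 2.43% of the genes it tested), limma-voom called 0 (against 0%), and an edgeR fit of all 16 libraries called 1 (Smox, edgeR FDR 0.0415, against 0.953%). The CAC mice are again those of the other comparisons.

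Smox had 239, 413, 141, and 372 CPM in KD mice, all above the CAC mice, as did 3.71% of genes tested (7.29% did not overlap in either direction), with KD 3 lowest. The log2 fold change was 2.23 (SE 0.50, 95% interval 1.10 to 3.37, edgeR FDR 0.244; DESeq2 adjusted p = 0.000286). Amd1 had 504, 655, 187, and 975 CPM in KD mice, where KD 3 lay within the CAC range (log2 fold change 1.88, SE 0.59, edgeR FDR 0.315; DESeq2 adjusted p = 0.0223). Ckmt2 had 1523, 1033, 1448, and 1462 CPM, all above the CAC mice, although KD 2 was only just so (log2 fold change 1.02, SE 0.36, edgeR FDR 0.360). With total-count scaling 1 member (Smox) did not overlap instead of 2, against 10.2% of genes tested.

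KD 2 and KD 3, whose macrophage and lymphocyte markers were low and whose slow fibre markers summed to 7779 and 5448 CPM against 1842 and 2671 CPM in KD 1 and KD 4, differed in some members too. Their fast fibre markers were higher too, at 140575 and 141446 CPM against 74266.1 and 102731 CPM in KD 1 and KD 4. So were their skeletal muscle markers, at 67058.6 and 65535.9 CPM against 46337.2 and 50444 CPM. Their fibroblast markers summed to 1015 and 816 CPM, against 3446 and 3931 CPM in KD 1 and KD 4, and their adipocyte markers to 358 and 490.3 CPM, against 2519.5 and 2547 CPM. The part of these markers was not tested. For 3 members both stood above KD 1 and KD 4. Ckm was 33127 and 31641 CPM in KD 2 and KD 3, against 18567 and 23092 CPM in KD 1 and KD 4. Slc6a8 was 107 and 136 CPM, against 68.2 and 70.8 CPM, and Sms 90.8 and 66.8 CPM, against 34.3 and 56.8 CPM. For Ckmt2 both stood below, with 1033 and 1448 CPM against 1523 and 1462 CPM. Odc1 split these mice, with 601 CPM in KD 2 and 85.9 CPM in KD 3, next to 92.3 CPM in KD 1 and below 185 CPM in KD 4. Without both of these mice, a setting chosen after seeing the data, the log2 fold changes of KD vs. CAC were 2.29 for Smox (edgeR FDR 0.0828), 2.21 for Amd1 (edgeR FDR 0.110), and 1.15 for Ckmt2 (edgeR FDR 0.219). The remaining KD members overlapped the CAC mice: Gatm with 12.5 to 21.2 CPM (log2 fold change 0.65, edgeR FDR 0.382), Srm with 15.6 to 21.1 CPM (-0.50, edgeR FDR 0.453), and Odc1 (-0.08, 95% interval -1.71 to 1.55). Sms (0.10), Sat1 (-0.20), Slc6a8 (-0.15), and Ckm (0.21) had an edgeR FDR of 0.738 to 0.965. Smox per 100 FPKM of Odc1 was 371, 98.6, 235, and 288 in KD mice, all above the CAC mice and lowest in KD 2 (log2 difference 2.63, exact p = 0.0286, adjusted 0.0857). Ckmt2 per 100 FPKM of Ckm was 11, 4.17, 6.12, and 8.47, of which KD 2 and KD 3 overlapped the CAC mice (log2 difference 0.90, exact p = 0.0857, adjusted 0.171).

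Against normal mice, 0 members were called in AM vs. NOR (0% of 14738 genes tested) or KD vs. NOR (0% of 14748), and 5 and 2 had an unadjusted p under 0.05 (9.19% and 3.54% of genes tested). DESeq2 called 0 members in both (0.476% and 0.211% of genes), as did limma-voom (0%). All AM mice lay below all NOR mice for Amd1 (log2 fold change -1.24, edgeR FDR 0.518), Smox (-1.24, edgeR FDR 0.518), and Sms (-0.37, edgeR FDR 0.518), and above them for Gatm (0.33, edgeR FDR 0.523), 4 of 10 members against 5.11% of genes tested. All KD mice lay below all NOR mice for Amd1 (-1.10, edgeR FDR 0.999) and Smox (-0.71, edgeR FDR 0.999), 2 of 10 members against 2.26% of genes tested. In percent of the NOR mean, Amd1 was 42.2% in AM and 46.4% in KD mice, Smox 42.3% and 60.8%, and Ckmt2 81.1% and 83.3%. In AM vs. KD no member was called or separated (0.956% of 14745 genes tested did not overlap, 0 members and 1.11% of genes had an unadjusted p under 0.05, and DESeq2 and limma-voom called 0, against 0.00681% and 0% of genes). The log2 difference of Amd1 there was -0.14 with a 95% interval of -1.37 to 1.10, and that of Smox -0.53 with an interval of -1.59 to 0.54.

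**Figure D4:**
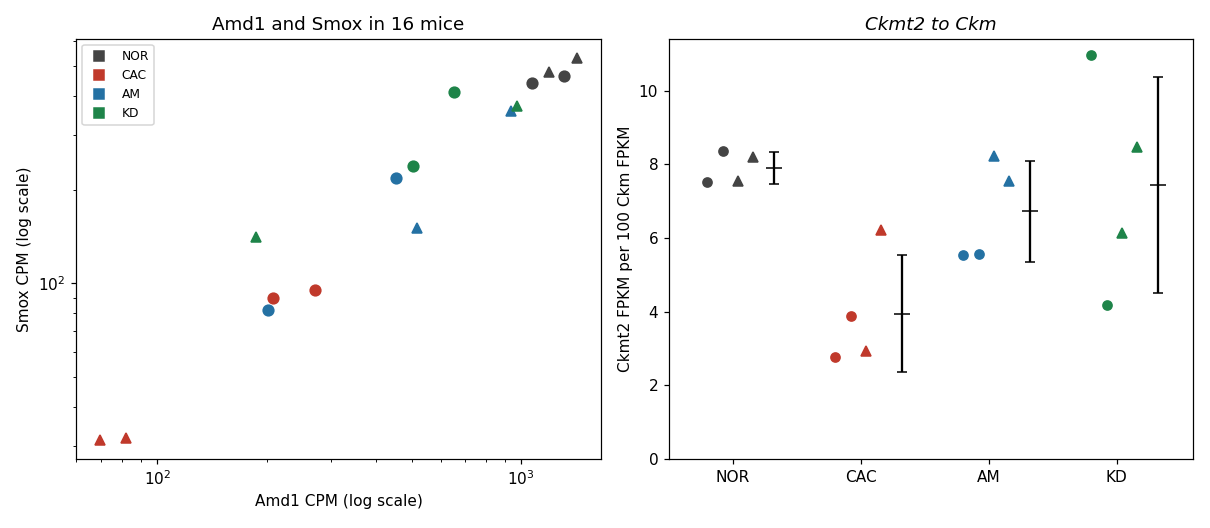
Left, Smox CPM against Amd1 CPM on log axes, 1 point a mouse (16 mice, color for the group, circles for C57BL/6 and triangles for BABL/c). Right, Ckmt2 FPKM per 100 FPKM of Ckm in each mouse, with mean ± SD (n = 4). Both BABL/c CAC mice sit at the lower left and the NOR mice at the upper right on the left, and on the right CAC mice lie at 2.76 to 6.22 against 7.53 to 8.37 for NOR mice.

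Amd1 and Smox followed each other from mouse to mouse. Of 13210 genes with a mean of at least 1 CPM, the one most like Smox over the 16 libraries was Amd1 (Pearson's r of log2 CPM 0.972), ahead of Wls (0.955), a carrier of Wnt ligands, and Ptges3l (0.950). Within groups of 4 the r of Amd1 and Smox was lowest in NOR mice (0.873), followed by KD (0.934), AM (0.946), and CAC mice (0.988). The points share library depth and the group differences, and the values are descriptions. Odc1, the other regulated synthesis enzyme, had an r of 0.356 with Amd1 and 0.360 with Smox, and was most like Sms among the members (0.772). The genes most like Ckmt2 were Cyc1 (0.987), a subunit of respiratory complex III, Phyh (0.974), a peroxisomal hydroxylase, and Fh1 (0.973), the fumarase of the citric acid cycle. Ckmt2 had an r of 0.566 with Ckm and of -0.840 with Srm.

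The other genes of the pathway were taken from lists of their roles. Of 16 other polyamine enzymes and regulators 14 were tested in CAC vs. NOR, where Slc3a2, a subunit of amino acid and polyamine transporters, rose and Amd2 fell, 2 genes called against the 9.45% of all genes tested. Slc3a2 had 46.4 to 67.8 CPM in NOR and 119 to 179 CPM in CAC mice (log2 fold change 1.26, edgeR FDR 0.00377). Amd2 had 116 to 154 CPM in NOR and 9.08 to 28.9 CPM in CAC mice (-2.82, edgeR FDR 0.00272), and its r with Amd1 was 0.941. In AM vs. CAC both were called the other way (Slc3a2 -0.75, edgeR FDR 0.0445; Amd2 2.01, edgeR FDR 0.0346), and both calls were lost without any 1 of the 8 mice and with labelled strain as a covariate (edgeR FDR 0.0782 and 0.0724). That of Slc3a2 was also lost under each other scaling, with no filter on low counts, and in the fit of all 16 libraries (edgeR FDR 0.0537 to 0.106). The counts of Amd2 cannot be cleanly separated from those of Amd1. With both summed into 1 gene, a setting chosen after seeing the data, AM vs. CAC was 1.77 and not called (edgeR FDR 0.0962). The median log2 fold change of this list was -0.23 for the tumor, 0.21 for the amiloride, and 0.16 for the knock-down comparison, each against 0.01 or less over all genes tested.

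Spermidine is also the substrate of deoxyhypusine synthase (Dhps), which modifies the translation factor eIF5A. Dhps, 1 of 4 genes of that list, rose from 19.4 to 21.4 CPM in NOR mice to 29.3 to 32.7 CPM in CAC mice (log2 fold change 0.60, SE 0.09, edgeR FDR 0.00520). It fell in AM mice to 19.4 to 20.4 CPM (AM vs. CAC -0.65, edgeR FDR 0.00937). KD mice had 14.4, 28.4, 29.2, and 19.4 CPM, with KD 2 and KD 3 just below the CAC range, KD 4 within the NOR range, and KD 1 below it. The fold of CAC vs. NOR, 1.51, is close to the limit of 1.5, and the call was lost without NOR 2, CAC 1, or CAC 3 (log2 fold change 0.56 to 0.58) and under upper-quartile scaling (0.55). The AM vs. CAC call was lost in the fit of all 16 libraries (edgeR FDR 0.0670).

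Among 8 other creatine and phosphagen genes 7 were tested, and 4 fell and 1 rose in CAC vs. NOR, where 5.13% of all genes tested were called lower and 9.45% either way, with a median of -0.89 against 0.01. Gamt, which methylates guanidinoacetate to creatine, had 22.6, 18.4, 17.1, and 16.9 CPM in NOR mice and 5.80, 4.97, 2.29, and 4.03 CPM in CAC mice, far apart and with BABL/c mice lowest (log2 fold change -2.15, SE 0.27, edgeR FDR 0.00380). In AM mice Gamt had 8.74, 12.1, 18.2, and 17.7 CPM, and it rose relative to CAC mice (1.74, edgeR FDR 0.0238), a call lost without CAC 2, CAC 4, AM 2, AM 3, or AM 4 (edgeR FDR 0.0555 to 0.0702) and with labelled strain as a covariate (edgeR FDR 0.0515). Ak1, adenylate kinase, fell (-1.30, edgeR FDR 0.0194; lost without NOR 2 or NOR 3, edgeR FDR 0.0521 and 0.0539), as did Ampd1, the muscle AMP deaminase (-1.43, edgeR FDR 0.0345; lost without any NOR mouse, CAC 2, or CAC 4). Ckb, the brain-type creatine kinase, fell although CAC 4 overlapped the NOR mice (-0.89, edgeR FDR 0.0313; lost without NOR 1, NOR 2, NOR 3, CAC 1, CAC 2, or CAC 3).

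Ampd3, another AMP deaminase, rose in CAC mice (47.5 to 75.7 CPM against 22.9 to 28.9 CPM in NOR mice, log2 fold change 1.12, edgeR FDR 0.00603) and fell in AM vs. CAC (-1.01, edgeR FDR 0.0111). In KD mice it had 21.2, 44.4, 44.8, and 31.4 CPM, highest in KD 2 and KD 3 as for Dhps. Ckmt1, the mitochondrial creatine kinase of other tissues, had at most 0.485 CPM in any library and was not tested. Of the summed creatine kinase FPKM, Ckm made up 89.9% to 97.2% and Ckmt2 2.69% to 9.87%, over all mice.

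In the arginine, ornithine, and proline list, 16 of 16 genes were tested. In CAC vs. NOR, Aldh4a1, a mitochondrial enzyme of proline breakdown, fell (-0.97, edgeR FDR 0.0117) and so did P4ha1, a collagen prolyl hydroxylase (-0.66, edgeR FDR 0.0328), whose call was lost without any 1 of 6 mice (NOR 1 to 3 and CAC 1 to 3). Both calls were lost in the fit of all 16 libraries (edgeR FDR 0.0757 and 0.0534). In AM vs. CAC, Prodh, proline dehydrogenase, fell from 27.0 to 35.2 CPM in CAC mice to 11 to 17.7 CPM in AM mice (-1.06, edgeR FDR 0.0151), a call lost in the fit of all 16 libraries (edgeR FDR 0.0918). Of the 7 genes of methionine and S-adenosylmethionine supply, which feed Amd1, 0 were called in any of the 3 comparisons, and 3, 1, and 2 had an unadjusted p under 0.05 in the tumor, amiloride, and knock-down comparison, where 29.1%, 21.7%, and 11.1% of all genes did.

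The KEGG entry for arginine and proline metabolism in the deposited annotation holds 50 genes of the table, among them members. Of 42 tested in CAC vs. NOR, 10 fell and 1 rose, where 9.45% of all genes tested were called and 5.13% were called lower. The median log2 fold change was -0.27, against 0.01 over all genes tested. Those that no list held were Maob, monoamine oxidase B (-0.71, edgeR FDR 0.0204, lost without NOR 4 or CAC 3), Carns1, carnosine synthase (-0.96, edgeR FDR 0.0240, lost without NOR 2, NOR 3, or CAC 3), and Hoga1, a mitochondrial aldolase (1.25, edgeR FDR 0.0463), which had at most 5.51 CPM in any mouse and lost its call without any 1 of the 8 mice. Of 43 tested in AM vs. CAC, where 3.66% of all genes were called, 4 rose and 1 fell, including Maob (0.59, edgeR FDR 0.0440), whose call was lost without any 1 of the 8 mice and with labelled strain as a covariate (edgeR FDR 0.0719), and Carns1 (1.10, edgeR FDR 0.0314), lost without any 1 of 6. In KD vs. CAC, 0 of 42 were called by edgeR and 10 had an unadjusted p under 0.05, against 0.00685% and 11.1% of all genes tested. The median there was 0.22, against 0.00 over all genes tested.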

How the data were processed

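Gastrocnemius mRNA was enriched with oligo(dT) beads and sequenced in 16 libraries, and the authors deposited 1 table with counts and FPKM of 21923 genes. The submitters' processing notes name fastp, Bowtie2, HISAT2, and StringTie 1.3.1, and the builds mm9 and GRCm38, without their roles. The deposited counts are whole numbers, not normalized. The deposited FPKM were scaled by the authors to gene length and library size. Groups came from the titles, in which AM mice are named T.

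Counts were tested with edgeR 4.0.16 (R 4.3.3) on the 8 libraries of each of 6 comparisons, with TMM scaling, a minimum count of 10 in the expression filter, and Benjamini-Hochberg adjustment over all genes tested. Calls used the study's limits, an FDR of 0.05 and a 1.5-fold change. NOISeq, the study's tool, was not used here. CPM are TMM-scaled. The strain difference was tested as an interaction, and ratios of FPKM with a two-sided exact permutation test. DESeq2 1.42.0, limma-voom (3.58.1), other scalings, filters, covariates, each strain alone, a replicate block, and leaving out each mouse were alternatives, and the statistics were tested on simulated data. Depth is the total count per library given with the results, and errors are the spread between mice. Replicate libraries differed by a chi-square of at least 66.6 per degree of freedom, so none was deposited in duplicate.

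Members and lists were chosen with earlier results of these data known. Every member is named. Other genes are named if called and in a list of roles or in the deposited KEGG entry, and for likeness the 3 genes of highest r to the polyamine and the creatine member of lowest FDR in CAC vs. NOR. The table's identifiers matched GENCODE M21 for 21905 of 21923 genes. Promoters are from RefSeq (GRCm38.p6).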

Additional observations from a re-analysis of the deposited data

Results flagged for a closer look

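Among 40 groups of 4 mice tested for a value far from the others (10 members, 4 groups), of which chance gives about 1 in 20, 3 stood apart. Sat1 was 16.98 CPM in NOR 1, against 23.2 CPM in the nearest NOR mouse. Ckmt2 was 1947 CPM in NOR 1, against 1581 CPM in the next. Ckmt2 was 1033 CPM in KD 2, against 1448 CPM in the nearest KD mouse. NOR 1 and KD 2 are also libraries with few lymphocyte counts (summed markers of 2.93 and 0.670 CPM), whose part in these values was not tested.

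In 4 cases of AM vs. CAC or KD vs. CAC, each mouse of one labelled strain lay above, and each of the other below, the mean of its strain's CAC mice. In AM vs. CAC, Sms changed by -0.71 on the log2 CPM scale in C57BL/6 and by 0.56 in BABL/c mice, a difference of 1.27 (interaction edgeR FDR 0.269). Sat1 changed by 0.28 and -0.51, a difference of -0.79 (edgeR FDR 0.329). Ckm changed by -0.17 and 0.71, a difference of 0.88 (edgeR FDR 0.446). In KD vs. CAC, Sat1 changed by 0.14 and -0.54, a difference of -0.68 (edgeR FDR 0.860). In CAC vs. NOR, Sms and Odc1 showed the same pattern against the mean of their strain's NOR mice. Sms had 71.7 and 84.0 CPM against 66.8 CPM in C57BL/6, and 40.3 and 36.1 CPM against 68.4 CPM in BABL/c mice (interaction edgeR FDR 0.523). Odc1 had 412 and 333 CPM against 251 CPM, and 201 and 77.7 CPM against 213 CPM (edgeR FDR 0.998). None of these interactions passed the threshold.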

How the results depend on the processing

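Amd1 and Smox in CAC vs. NOR kept direction in all 22 settings and their calls in 21, all but BABL/c mice alone, and Ckmt2 lost its call in 9. In CAC vs. NOR, 3 members were called, 4 in DESeq2, with strain as a covariate, and in the fit of all 16 libraries (Srm added), 2 in C57BL/6 mice alone (1.69% of genes, Ckmt2 lost, edgeR FDR 0.0643), 0 in BABL/c mice alone (0% of genes), 5 with the lymphocyte covariate (11.2%), 2 with the replicate block (7.77%, where Ckmt2 had an edgeR FDR of 0.0518), and 2 to 3 with a mouse left out. In AM vs. CAC, 0 were called, 1 (Gatm) under upper-quartile (3.48% of genes) or total-count scaling (3.74%), the 1 CPM filter (4.33%), limma-voom (3.77%), or the lymphocyte covariate (2.58%), and 4 in DESeq2 (7.67%). In KD vs. CAC, 0 were called, 2 in DESeq2 (2.43%) and 1 in the fit of all 16 libraries (0.953%). With total counts, 1 member instead of 2 did not overlap in the amiloride (15.4% of genes) and the knock-down comparison (10.2%), and the median of all genes moved to 0.14 in CAC vs. NOR and -0.11 in KD vs. CAC. Numbers shared by mice did not pair them throughout (r of deviations -0.67 to 0.63). For some this r was above the highest r with another number, as for replicate 1 of CAC vs. NOR (0.63 against 0.41) and of AM vs. KD (0.56 against 0.12). For others it was below. The replicate block left 0 of 14674 genes called in AM vs. CAC, the 8 other named genes included (edgeR FDR 0.106 to 0.232). It removed the calls of Ckb, P4ha1, Hoga1, Maob, and Carns1 in CAC vs. NOR (0.0551 to 0.0890). With strain as a covariate Gamt, Amd2, Slc3a2, and Maob lost their calls in AM vs. CAC (0.0515 to 0.0782). Calls of other named genes were also lost in the fit of all 16 libraries (Aldh4a1 and P4ha1 in CAC vs. NOR; Prodh, Dhps, Slc3a2, and Maob in AM vs. CAC), under total counts (Ckb and P4ha1 in the first, Maob and Slc3a2 in the second), upper-quartile (Dhps in the first, Slc3a2 in the second), or RLE scaling (Slc3a2 in the second), with no filter (Maob and Slc3a2 in the second), and with the lymphocyte covariate (Hoga1 in the first, Amd2, Carns1, Maob, and Slc3a2 in the second).

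Direction was kept in 495 of 505, 389 of 395, and 216 of 230 alternative fits of single genes for the tumor, amiloride, and knock-down comparisons in turn, and the log2 fold changes that turned were those of uncalled members. In CAC vs. NOR, Slc6a8 was 0.00397 with total counts, 0.28 in BABL/c alone, and -0.32 to 0.0640 with a mouse left out. Odc1 was -0.0406 in limma-voom, -0.0134 with strain as a covariate, -0.0677 with the replicate block, -0.57 in BABL/c alone, and -0.18 to 0.44 with a mouse left out. Sms was 0.22 in C57BL/6 alone. In AM vs. CAC, C57BL/6 alone gave 0.30 for Sat1 and -0.16 for Ckm, BABL/c alone 0.0628 for Odc1 and 0.54 for Sms, and a mouse left out -0.24 to 0.00885 for Sat1 and -0.32 to 0.0863 for Sms. In KD vs. CAC, Sms was -0.0359 with total counts, -0.29 in C57BL/6 alone, -0.36 without KD 2 and KD 3, and -0.15 to 0.33 with a mouse left out. C57BL/6 alone gave 0.17 for Sat1 and -0.11 for Ckm, which was -0.14 without KD 2 and KD 3, and Odc1 was -1.09 to 0.25 with a mouse left out. Of the FPKM ratios with a mouse left out, Sat1 to Odc1 ran from -0.14 to 0.77 (CAC vs. NOR) and -0.24 to 0.67 (KD vs. CAC), and Ckb to Ckm from -0.0855 to 0.48 (KD vs. CAC). By the ratio of mean FPKM, with no test, Slc6a8 in CAC vs. NOR and Sms in KD vs. CAC also turned, both to values near 0. The causes were not tested, and no other depth was tried.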
